A study of Mus musculus with 56 samples.

Results

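Angptl4, Pdk4, Pdk2, Ppara and Bdh1 are 5 genes that steer a tissue between glucose and fat as fuel, and their transcripts are described here in the mouse kidney under 2 opposite feeding schedules. They are 5 of the 17027 genes in the deposited kidney table and were picked by name. Angptl4 and Pdk4 were picked with their time courses and their large differences between schedules already known, so the levels and differences of all 5 genes between schedules and time points are given as a description, without a test. The tests reported for them use only measures that did not enter that choice, which are the comparison of the same clock time 1 day apart and the differences between mice of the same group.

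Kidneys came from 56 female C57BL/6J mice, 9 weeks old and kept under 12 h of light and 12 h of darkness. Daytime-restricted feeding (DRF) offered chow in the light phase, from lights on at zeitgeber time (ZT) 0 to ZT12, and nighttime-restricted feeding (NRF) offered it in the dark phase. Each schedule lasted 7 days, after which 4 mice of each schedule were killed at ZT0, ZT4, ZT8, ZT12, ZT16, ZT20 or ZT24, giving 14 groups and 28 mice per schedule. All mice were wild-type, each library was poly(A) RNA of the kidney of 1 mouse, and no mouse fed without restriction is among the groups. Mice fed by day were therefore without food at ZT16 and ZT20, and mice fed by night at ZT4 and ZT8.

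When food is absent, tissues save glucose and burn fatty acids and ketone bodies. Pyruvate dehydrogenase kinases phosphorylate the pyruvate dehydrogenase complex and shut it down, which keeps pyruvate from entering the mitochondrial citrate cycle as acetyl-CoA. PDK4 is the kinase best known for its rise in fasting, and PDK2 is a widely and steadily expressed relative. ANGPTL4 is a secreted inhibitor of lipoprotein lipase, the enzyme that frees fatty acids from circulating triglyceride, and PPARA is a nuclear receptor, activated by fatty acids, for which both Angptl4 and Pdk4 are classical targets. BDH1 is the mitochondrial enzyme that interconverts the ketone bodies beta-hydroxybutyrate and acetoacetate. The kidney cortex, made largely of proximal tubules, burns mostly fatty acids and also takes up ketone bodies.

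Stretches before listed transcription starts of the genes were searched for binding motifs of the factors tied to fasting and to the clock. The reference table, from RefSeq for build GRCm38.p6, held windows for 4 of the 5 genes and none for Angptl4. The bases printed lie upstream of the annotated gene and are read 5′ to 3′ on the strand of the gene, and capitals mark a motif.
Pdk4, chr6:5496310-5496528, minus strand: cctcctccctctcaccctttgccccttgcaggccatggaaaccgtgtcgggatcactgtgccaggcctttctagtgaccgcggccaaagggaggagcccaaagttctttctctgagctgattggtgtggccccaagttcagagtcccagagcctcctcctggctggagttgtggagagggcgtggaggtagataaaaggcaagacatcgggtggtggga
Pdk2, chr11:95041372-95041621, minus strand: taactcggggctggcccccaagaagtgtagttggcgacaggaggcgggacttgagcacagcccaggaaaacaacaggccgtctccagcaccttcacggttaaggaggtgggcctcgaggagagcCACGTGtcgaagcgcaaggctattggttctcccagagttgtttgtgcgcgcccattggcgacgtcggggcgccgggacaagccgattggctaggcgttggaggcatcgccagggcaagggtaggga
Over the 250 bases before each listed start, read on both strands, 4 motifs were searched: AGGTCA, the half-site of nuclear receptors, CACGTG, the E-box of clock activators, GTAAACA, a site of FOXO factors, and TGACG, the half-site of cyclic AMP response elements. Of 32851 windows of all genes, 4607 held AGGTCA, 1978 (6.02%) CACGTG, 1040 (3.17%) GTAAACA and 5836 (17.8%) TGACG. Among the 6 windows of the 4 genes, the Pdk2 stretch above held 1 CACGTG, whose first base lay 126 bases before the start. The Ppara window held 1 TGACG, 222 bases before its listed start, but this window lies inside the gene as annotated. The second windows of Pdk2 and Bdh1 also lie inside their annotated genes. The windows of Pdk4 and Bdh1 held none of these letters, so the printed Pdk4 stretch is shown without capitals.

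Levels are given as TPM, reads divided by gene length and scaled to 1 total in every library. TPM was recomputed here from reads recovered out of the deposited values. All 5 genes passed the filter of a mean of 1 TPM. Because TPM accounts for gene length, levels can be set side by side between genes. Averaged over the 56 mice, Pdk2 was the most abundant member at 370.1 TPM, followed by Bdh1 at 177 TPM, Ppara at 147 TPM, Pdk4 at 71.6 TPM and Angptl4 at 39.5 TPM. The range over the day ran the other way. The highest of the 14 group means was 31.7 times the lowest for Pdk4 and 23.1 times for Angptl4, but 2.54 times for Ppara, 1.61 times for Bdh1 and 1.48 times for Pdk2. In bulk kidney RNA, fewer cells of a type and less RNA per cell cannot be told apart.

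**Figure D1:**
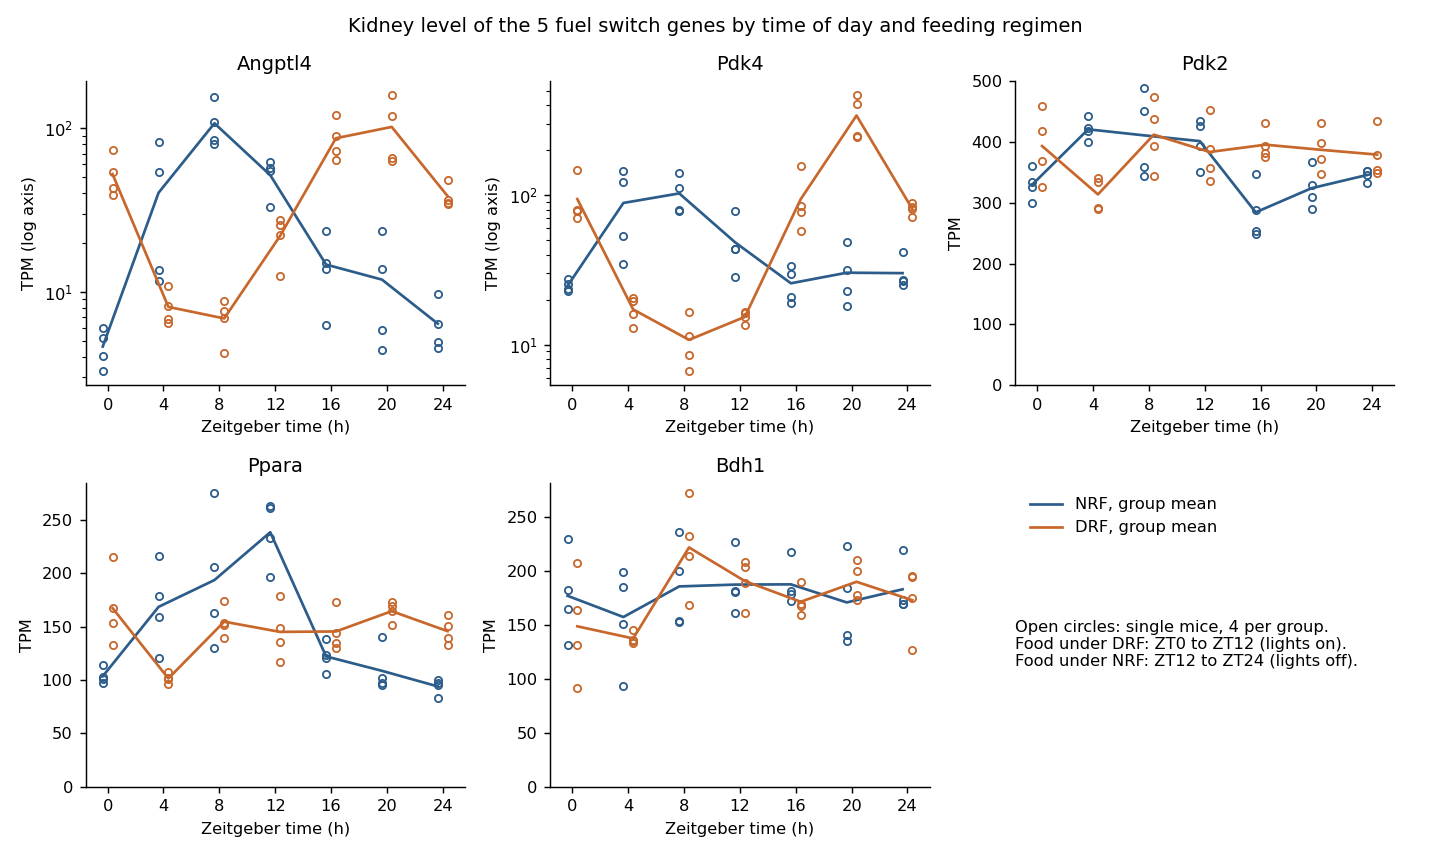
Level of each gene in TPM (log axis for Angptl4 and Pdk4) against zeitgeber time in hours, with open circles for single mice and lines through the group means of NRF and DRF (n = 4 mice per group). Angptl4 and Pdk4 are high by day under NRF and by night under DRF, while Pdk2 stays between group means of 284 and 421 TPM.

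Pdk4, the pyruvate dehydrogenase kinase of fasting (chromosome 6, 5483351 to 5496309, minus strand, GRCm38.p6), reached its highest level late in the fast of mice fed by day. At ZT20 the 4 DRF mice held 468, 247, 404 and 243 TPM (341 ± 113, mean ± SD, n = 4), and at ZT8, within the meal, they held 6.63, 8.52, 11.5 and 16.4 TPM (10.8 ± 4.26). The lowest mouse of the first group stood far above the highest of the second. Under DRF the mean was 94.1 ± 36.0 TPM at ZT0, 17.2 ± 3.41 at ZT4, 15.3 ± 1.33 at ZT12, 93.8 ± 43.7 at ZT16 and 80.6 ± 6.83 at ZT24, so the level was low at each of the 3 time points within the meal. Under NRF the range was narrower. The NRF mice held 141, 78.3, 79.3 and 112 TPM at ZT8 (103 ± 30.05), when they had no food, and 18.0, 48.4, 31.7 and 22.9 TPM at ZT20 (30.3 ± 13.3), when they had it. Their lowest group mean, 24.7 ± 2.08 TPM at ZT0, was above the DRF means at ZT4, ZT8 and ZT12.

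Angptl4, the lipase inhibitor (chromosome 17, 33773750 to 33781830, minus strand), peaked at nearly the same level under both schedules. It stood at 155, 109.7, 80.1 and 84.2 TPM in the NRF mice at ZT8 (107 ± 34.3) and at 159.9, 65.3, 119 and 63.4 TPM in the DRF mice at ZT20 (102 ± 46.4), and these 2 sets overlapped. The troughs were at 5.97, 4.05, 5.24 and 3.27 TPM under NRF at ZT0 (4.63 ± 1.20) and at 4.20, 6.90, 7.59 and 8.82 TPM under DRF at ZT8 (6.88 ± 1.95). The highest mouse of either trough held 8.82 TPM and the lowest of either peak 63.4 TPM. The timing of the trough differed, since Angptl4 was lowest at the end of the night meal under NRF and in the middle of the day meal under DRF. By ZT12, when the day meal ended, the DRF mean was already 21.9 ± 6.75 TPM, and it went on to 86.8 ± 24.9 TPM at ZT16.

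Ordering the 14 groups by mean showed how far these levels were set apart. For Angptl4 the order began with NRF ZT8, DRF ZT20 and DRF ZT16 and ended with DRF ZT8, NRF ZT24 and NRF ZT0, and 10 of its 13 neighbouring pairs differed by less than their pooled SD. The 3 wider steps were DRF ZT16 over DRF ZT0, DRF ZT24 over DRF ZT12, and DRF ZT12 over NRF ZT16. For Pdk4 the order began with DRF ZT20 and NRF ZT8 and ended with DRF ZT4, DRF ZT12 and DRF ZT8, and 8 of 13 neighbouring pairs lay within their pooled SD. Its top step, DRF ZT20 over NRF ZT8, was one of the 5 that did not.

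Ppara, the receptor (chromosome 15, 85734983 to 85802819, plus strand), had a clear daily course under NRF and a shallow one under DRF. The NRF mice held 233, 263, 261 and 197 TPM at ZT12, the end of their fast (238 ± 31.1), and 83.6, 95.7, 97.1 and 99.7 TPM at ZT24, the end of their meal (94.0 ± 7.13). These groups did not overlap. NRF means climbed from 104 ± 7.44 TPM at ZT0 through 169 ± 40.02 at ZT4 and 194 ± 62.6 at ZT8, then stood at 122 ± 13.5 at ZT16 and 109 ± 21.4 at ZT20. Under DRF the mean was 101 ± 4.59 TPM at ZT4 and between 145 and 167 TPM at every other time, with the 4 mice at ZT4 (102, 107, 96.0 and 100.6 TPM) below every other DRF mouse. The ZT8 group, still feeding, was back at 155 ± 14.6 TPM, near the 164 ± 9.29 TPM of the fasted ZT20 group.

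Pdk2, the steady kinase (chromosome 11, 95026258 to 95041354, minus strand), moved least in proportion. Under NRF it was highest at ZT4, with 443, 423, 418 and 399 TPM (421 ± 17.8), and lowest at ZT16, with 348, 248.5, 253 and 288 TPM (284 ± 45.8), and these groups did not overlap. Under DRF the ZT4 mice, 4 h into the meal, held 292, 339.9, 334 and 289.6 TPM (314 ± 26.8), and the other 6 group means lay between 379 and 412 TPM. In its order of groups, 12 of 13 neighbouring pairs were within their pooled SD, against 11 of 13 for Ppara.

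Bdh1, the ketone body dehydrogenase (chromosome 16, 31422280 to 31458901, plus strand), showed no step in its order of groups beyond the pooled SD in any of 13 neighbouring pairs. Its lowest group was DRF ZT4, with 145, 136, 135 and 133 TPM (137 ± 5.42), and its highest DRF ZT8, with 169, 214, 232 and 273 TPM (222 ± 43.3). These did not overlap, although they are 4 h apart in the same meal. Under NRF all 7 means fell between 157 and 188 TPM, with single mice from 93.7 to 236 TPM.

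Ppara, Pdk2 and Bdh1 thus all had their lowest DRF mean at ZT4, the first time point after food was given, whereas Angptl4 and Pdk4 had theirs at ZT8.

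To bring both schedules onto 1 scale, the mice without food were set against the mice with food within each schedule: the mean of ZT4 and ZT8 against the mean of ZT16 and ZT20 under NRF, and the reverse under DRF. Within 1 schedule, food and clock time change together and cannot be told apart. The 2 schedules use different mice and opposite clock times. Differences are on the scale of log2(TPM + 1), fitted with limma over the 12230 genes with a mean of at least 1 TPM, and are given with their standard errors (SE).

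Pdk4 was 1.67 ± 0.23 log2 units (3.18-fold) higher without food under NRF and 3.58 ± 0.23 (12.0-fold) under DRF. Under DRF its 8 fasted mice ranged from 57.1 to 468 TPM (median 200.2) and its 8 fed mice from 6.63 to 20.4 TPM (median 14.5), with no overlap. Under NRF the fasted mice ranged from 34.5 to 145 TPM (median 95.4) and the fed mice from 18.0 to 48.4 TPM (median 26.2), and 7 of 8 fasted mice stood above every fed mouse. Angptl4 was 2.18 ± 0.30 log2 units (4.53-fold) higher without food under NRF and 3.44 ± 0.30 (10.9-fold) under DRF. Its DRF groups, 63.4 to 159.9 TPM fasted and 4.20 to 10.9 TPM fed, did not overlap. Its NRF groups did, because 2 fasted mice at ZT4, with 13.6 and 11.6 TPM, were as low as fed mice. Among the 12230 genes, sorted by this difference, Angptl4 ranked 1 under NRF and 2 under DRF, and Pdk4 ranked 13 and 1.

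The other members differed less. Ppara was 0.61 ± 0.11 log2 units higher without food under NRF and 0.30 ± 0.11 under DRF, ranking 369 and 789. Pdk2 was 0.45 ± 0.08 higher under NRF and 0.13 ± 0.08 under DRF. With ZT8 and ZT20 alone, the DRF differences were 0.09 ± 0.16 for Ppara and -0.08 ± 0.11 for Pdk2, each smaller than its SE. For both, 6 of 8 fasted NRF mice stood above every fed NRF mouse, and no fasted DRF mouse stood above every fed DRF mouse. Bdh1 differed by -0.09 ± 0.14 under NRF and 0.05 ± 0.14 under DRF, each smaller than its SE, and by -0.32 under NRF without the 14 mice that held at least 20 TPM of the fat marker Adipoq.

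**Figure D2:**
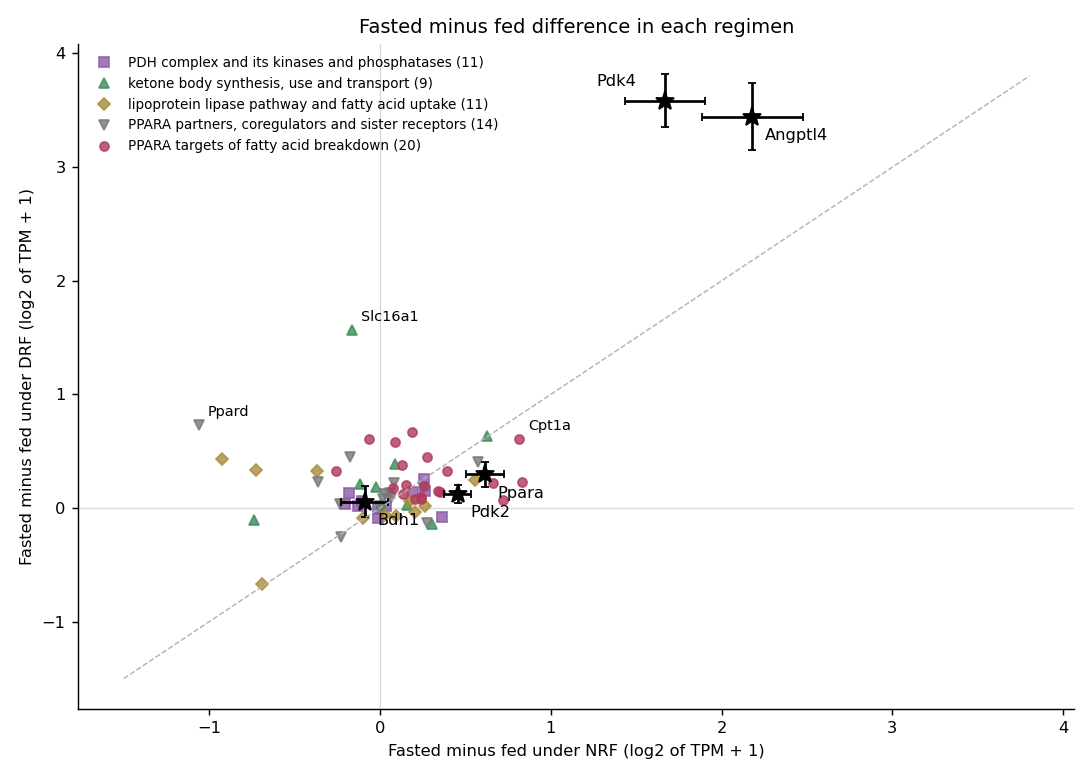
Fasted minus fed difference on the log2(TPM + 1) scale under NRF (horizontal) and DRF (vertical), with black stars and SE bars for the 5 genes and coloured symbols for the 65 tested genes of 5 pathway lists. Pdk4 lies at 1.67 and 3.58 and Angptl4 at 2.18 and 3.44, both above the dashed line of equal differences, while Ppara, at 0.61 and 0.30, lies below it.

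Scaling left the large differences of Pdk4 and Angptl4 close to their values above but shifted the split of calls over all genes. Scaling the libraries by the median of ratios instead of TPM gave 1.59 (NRF) and 3.60 (DRF) for Pdk4 and 2.10 and 3.46 for Angptl4. Across all genes it moved the share of called genes that were higher without food under NRF from 71.2% of 5335 to 50% of 5539, and under DRF from 31.2% of 3086 to 45.5% of 3555. For the difference between the schedules in fasted minus fed it moved this share from 23.1% to 49.2%, and for DRF minus NRF at ZT20 from 62.5% to 48.4%. Median-of-ratios scaling levels the median gene between libraries by construction, so shares near 50% are partly built in. Under NRF it took the median fasted minus fed difference of all genes from 0.07 to -0.005 log2 units.

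The difference between the fasted minus fed values of DRF and NRF was 1.92 ± 0.33 log2 units for Pdk4 and 1.27 ± 0.42 for Angptl4, and had the other sign for Pdk2 (-0.33 ± 0.11) and Ppara (-0.31 ± 0.16). With ZT8 and ZT20 alone it was 3.09 ± 0.47 for Pdk4, 0.35 ± 0.59 for Angptl4 (95% interval -0.84 to 1.55), -0.42 ± 0.15 for Pdk2 and -0.70 ± 0.22 for Ppara, so for Angptl4 it was then smaller than its SE. Over all genes 36.6% of 12230 passed limma's test of this difference at an adjusted p under 0.05. The same value is the dark minus light difference at matched food status, so clock phase and schedule cannot be told apart in it. Averaged over the clock, the schedules were closer, with DRF minus NRF at 0.02 ± 0.13 for Pdk4, 0.30 ± 0.16 for Angptl4, 0.07 ± 0.04 for Pdk2, -0.03 ± 0.06 for Ppara and 0.00 ± 0.08 for Bdh1.

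Placing the same groups by hours since food was given separates the schedules by clock time at a matched point of the meal cycle. After 20 h, deep in the fast, Angptl4 stood at 107 ± 34.3 TPM in NRF mice (by day) and at 102 ± 46.4 TPM in DRF mice (by night), a DRF minus NRF difference of -0.13 ± 0.42 log2 units. Pdk4 at the same 20 h stood at 103 ± 30.05 and 341 ± 113 TPM, a difference of 1.70 ± 0.33 (3.26-fold), and all 4 DRF mice were above all 4 NRF mice. After 16 h the larger difference was that of Angptl4, but the NRF mice were split, at 13.6, 11.6, 54.0 and 82.1 TPM of Angptl4. The DRF mice held 64.1 to 121 TPM of it. The 2 low NRF mice were also the lowest of their group in Pdk4, at 52.9 and 34.5 TPM. Pdk4 then differed by 0.21 ± 0.33, at 88.6 ± 53.2 TPM under NRF and 93.8 ± 43.7 TPM under DRF, whereas Angptl4 was 1.49 ± 0.42 log2 units higher under DRF, at 86.8 ± 24.9 TPM against 40.3 ± 34.0 TPM under NRF.

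Within the meal, Pdk4 was the lower under DRF. After 8 h of food it stood at 10.8 ± 4.26 TPM under DRF and 30.3 ± 13.3 TPM under NRF, a difference of -1.38 ± 0.33, and no DRF mouse reached the lowest NRF mouse at 18.0 TPM. Angptl4 at 8 h differed by -0.49 ± 0.42, with the NRF mice spread from 4.39 to 23.5 TPM. After 12 h, as the meal ended, Angptl4 had left its trough under DRF (21.9 ± 6.75 TPM) and not under NRF (4.63 ± 1.20 at ZT0 and 6.39 ± 2.37 at ZT24). At the end of the fast, as food came back, Angptl4 was at 51.6 ± 12.7 TPM under NRF and at 52.4 ± 15.5 (ZT0) and 38.5 ± 6.68 TPM (ZT24) under DRF. Pdk4 at that point was at 48.3 ± 20.9 under NRF and at 94.1 ± 36.0 and 80.6 ± 6.83 under DRF, and Ppara at 238 ± 31.1 under NRF and at 167 ± 35.3 and 146 ± 12.5 under DRF.

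**Figure D3:**
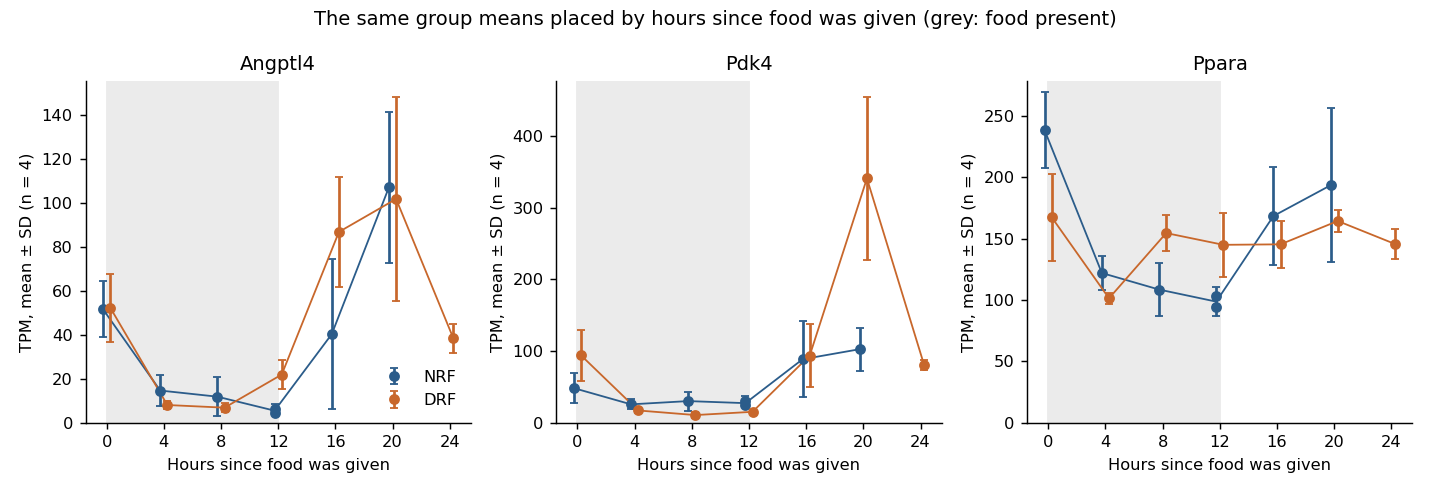
Group means ± SD in TPM (n = 4 mice) of Angptl4, Pdk4 and Ppara against hours since food was given, with food present in the grey band. Angptl4 stands at 107 TPM (NRF) and 102 TPM (DRF) at 20 h, Pdk4 of DRF stands at 341 TPM there against 103 TPM for NRF, and Ppara of NRF is highest at the end of the fast.

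A 24-h cosine fitted to each schedule put the Pdk4 peak at 19.4 h after food was given under NRF (ZT7.39 ± 0.52) and at 19.96 h under DRF (ZT19.96 ± 0.20). Its amplitude was 1.03 ± 0.15 log2 units under NRF and 2.37 ± 0.13 under DRF, a fitted peak to trough ratio of 4.17 and 26.9. The Angptl4 amplitudes were alike, 1.95 ± 0.21 and 2.04 ± 0.12, and its peaks fell 21.3 h (NRF) and 18.9 h (DRF) after food was given. Ppara peaked 21.6 h after food under NRF, with an amplitude of 0.61 ± 0.07, and 18.0 h after food under DRF, with 0.17 ± 0.07. Pdk2 had an amplitude of 0.27 ± 0.05 under NRF and 0.09 ± 0.05 under DRF, where its phase (ZT15.9 ± 2.07) was poorly fixed. Bdh1 had 0.08 ± 0.07 and 0.18 ± 0.07. In limma's test of whether a cosine differed between the schedules, 45.6% of all genes passed.

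Mice killed at ZT24 and at ZT0 shared clock time and feeding state and differed by 1 day on the schedule, and this comparison played no part in choosing the genes. None of the 5 genes passed limma's test in either schedule, and for none was the unadjusted p under 0.05. For Angptl4 the ZT24 minus ZT0 difference was 0.37 log2 units under NRF (95% interval -0.48 to 1.21, adjusted p = 0.889) and -0.41 under DRF (-1.25 to 0.44, adjusted p = 0.99997). For Pdk4 it was 0.25 under NRF (-0.42 to 0.91, adjusted p = 0.892) and -0.16 under DRF (-0.82 to 0.50, adjusted p = 0.99997). The intervals were narrower for Ppara (-0.45 to 0.17 under NRF, adjusted p = 0.889, and -0.49 to 0.13 under DRF), Pdk2 (-0.15 to 0.29, adjusted p = 0.910, and -0.27 to 0.17) and Bdh1 (-0.32 to 0.46, adjusted p = 0.954, and -0.13 to 0.65). Over all genes, 84 of 12230 (0.687%) passed this test under NRF and 0 (0%) under DRF, where limma gave 520 genes an unadjusted p under 0.05. No other tool was run on this comparison.

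Mice of 1 group shared schedule and clock time, so their scatter around the group mean is free of the group differences for which the genes were picked. Angptl4 and Pdk4 scattered together. In the NRF group at ZT4, the mice with 13.6 and 11.6 TPM of Angptl4 held 52.9 and 34.5 TPM of Pdk4, and those with 54.0 and 82.1 TPM of Angptl4 held 122 and 145 TPM. In the DRF group at ZT20, the mice with 159.9 and 119 TPM of Angptl4 held 468 and 404 TPM of Pdk4, and those with 65.3 and 63.4 TPM held 247 and 243 TPM. Over the deviations of all 56 mice, Pearson's r was 0.805 (permutation p = 1e-05, 2-sided, the smallest that 100000 permutations of mice within groups can give, adjusted p = 3.33e-05 over 10 pairs of genes) and Spearman's rho 0.771 (permutation p = 1e-05). It was 0.859 within NRF and 0.705 within DRF, each over 28 mice, and 0.752 without the 2 mice farthest from the median in Angptl4. The deviations had 1 sign in 39 of 56 mice.

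A shared scatter of these genes with the receptor was not detected. Angptl4 and Ppara gave r = 0.074 (permutation p = 0.718, rho 0.026) and Pdk4 and Ppara r = 0.090 (permutation p = 0.642, rho -0.020), although over the 14 group means, as a description, Angptl4 and Ppara had r = 0.76. Without the 2 farthest mice, r was -0.013 and -0.011. Leaving out 1 replicate number at a time gave r from -0.159 to 0.379 for Angptl4 and Ppara and from -0.097 to 0.415 for Pdk4 and Ppara, the highest of each without replicate number 1 (permutation adjusted p = 0.121 and 0.067). Of the 10 pairs, 6 had an r between -0.16 and 0.17, with an adjusted permutation p of 0.482 or more.

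Ppara, Pdk2 and Bdh1 made up the other set. Pdk2 and Ppara deviated together between mice of 1 group, with r = 0.712 (permutation p = 1e-05, adjusted p = 3.33e-05, rho 0.697), 0.766 within NRF, 0.675 within DRF and 0.682 without the 2 farthest mice. Bdh1 ran against both. Ppara and Bdh1 had r = -0.673 (permutation p = 2e-05, adjusted p = 5e-05, rho -0.648), -0.637 within NRF and -0.746 within DRF. Pdk2 and Bdh1 had r = -0.616 (permutation p = 1e-05, adjusted p = 3.33e-05, rho -0.641), -0.576 within NRF and -0.669 within DRF. Without the 2 farthest mice these were -0.704 and -0.619. Scaling by the median of ratios took the Pdk2 and Bdh1 correlation to -0.316 (permutation p = 0.029, adjusted p = 0.073), while Ppara and Bdh1 kept -0.531 (permutation p = 0.00064, adjusted p = 0.0021).

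**Figure D4:**
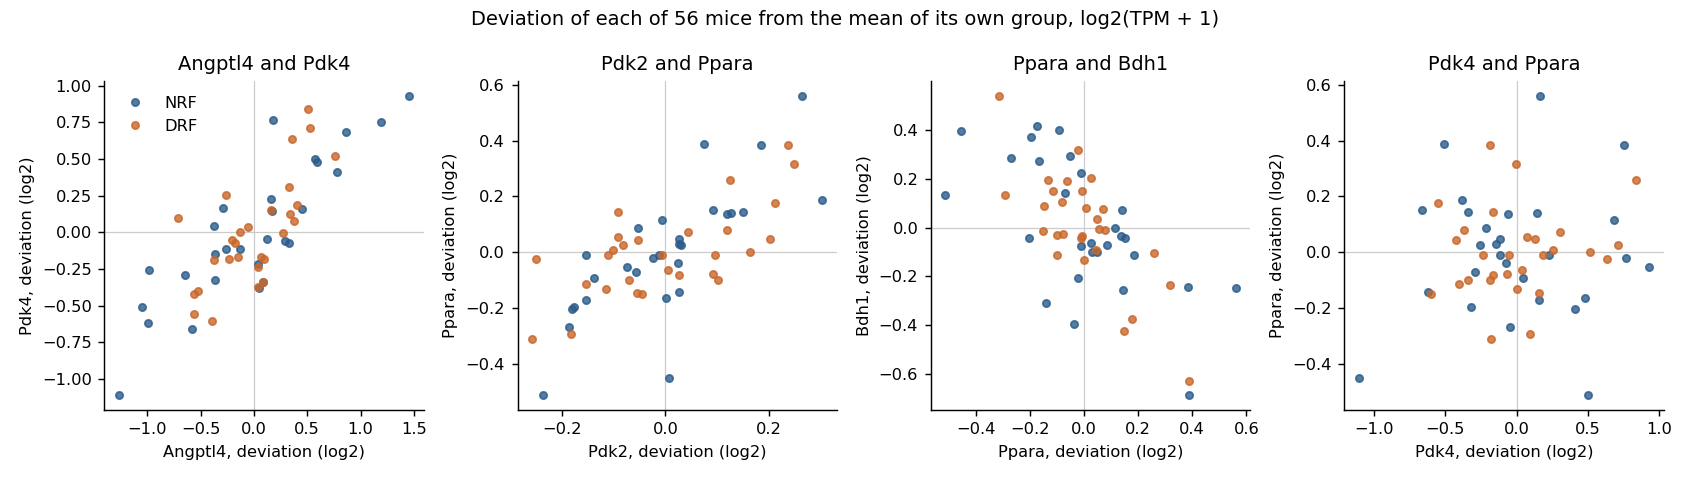
Deviation of each of 56 mice from the mean of its own group on the log2(TPM + 1) scale for 4 pairs of genes, coloured by schedule. Angptl4 and Pdk4 (r = 0.805) and Pdk2 and Ppara (r = 0.712) run together, Ppara and Bdh1 (r = -0.673) run in opposite directions, and Pdk4 and Ppara show r = 0.090.

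The scatter of this second set moved with the markers of some kidney segments and not detectably with those of others. The summed level of 2 markers of the glomerulus, the filter of the nephron (Nphs1 and Podxl), ranged from 146 to 300.1 TPM over the mice, with neither marker at 0. The correlations used not this sum but the marker mean, the mean of log2(TPM + 1) over the markers of a list. Within groups, the glomerulus marker mean correlated with Bdh1 (r = -0.782, permutation adjusted p = 5e-04 over 50 relations), Ppara (r = 0.672, adjusted p = 0.00125) and Pdk2 (r = 0.562, adjusted p = 0.0026). The summed level of 3 of 3 markers of the thick ascending limb and distal tubule ran from 4009 to 9406 TPM. Their marker mean correlated with Pdk2 (r = -0.562, adjusted p = 0.0047) and Bdh1 (r = 0.510, adjusted p = 0.0026), while Ppara had r = -0.347 (adjusted p = 0.071). The proximal tubule marker mean gave r = 0.020 for Pdk2, 0.109 for Ppara and -0.019 for Bdh1, and the collecting duct marker mean -0.222, -0.225 and 0.038, with adjusted p-values of 0.260 or more. For Angptl4 and Pdk4 no correlation with any of 10 marker lists passed, the nearest being Pdk4 and the adrenal list (r = 0.331, adjusted p = 0.078). The part of these segment markers in the correlations of Pdk2, Ppara and Bdh1 was not tested.

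Fat tissue was the other variable component, and Angptl4 and Lpl are also expressed by fat cells. Of 6 adipose markers, all had a value. Adipoq, the adiponectin gene, ran from 0 to 354 TPM with a median of 2.02 TPM and was at 0 in 7 mice, and Lep, the leptin gene, was at 0 in 27 mice. The summed markers ranged from 1.02 to 43.0 TPM at NRF ZT8 and from 3.17 to 605 at DRF ZT20, the peaks of Angptl4, and from 0.77 to 1.81 at DRF ZT8, where it was low, but from 0.43 to 643 at NRF ZT0, where its mean was the lowest of all groups. The widest groups were NRF ZT12 (5.75 to 2967 TPM), NRF ZT16 (1.04 to 1951 TPM) and NRF ZT4 (0.67 to 804 TPM). Within groups, Angptl4 and the adipose marker mean, on the log2(TPM + 1) scale, had r = 0.356 (permutation adjusted p = 0.160). Leaving out the 14 mice with at least 20 TPM of Adipoq, a threshold set after seeing the data, put Angptl4 at 2.19 log2 units higher without food under NRF and 3.40 under DRF, and Pdk4 1.55 and 3.56. Angptl4 and Pdk4 had r = 0.776 in the remaining 42 mice, Pdk2 and Ppara 0.694, Pdk2 and Bdh1 -0.641, and Ppara and Bdh1 -0.766. Ppara stood at 0.68 and 0.29, Pdk2 at 0.55 and 0.10, and Bdh1 at -0.32 and 0.11.

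The proximal tubule markers Slc34a1 (2125 to 4875 TPM) and Lrp2 (443 to 841 TPM) were high in every library. Several kidney markers also differed between fasted and fed mice of a schedule, where food and clock time change together. Over all genes, 17.4% were called lower without food under DRF, and 12.6% lower and 31.0% higher under NRF. Of the 4 collecting duct markers, 3 were lower without food under DRF, namely the water channels Aqp2 (-0.84 log2 units, adjusted p = 0.017) and Aqp3 (-0.57, adjusted p = 1.8e-05) and the sodium channel subunit Scnn1g (-0.27, adjusted p = 0.0094), and the list summed to 1296 to 1588 TPM at DRF ZT8 and 413 to 1067 TPM at DRF ZT20. Under NRF, Aqp3 was 0.27 higher (adjusted p = 0.021) and Avpr2, the vasopressin receptor, differed by -0.46 (adjusted p = 0.0080). Aqp3 was thus higher by day in both schedules. Of the 4 proximal tubule markers tested, Kap (-0.66, adjusted p = 0.012) and Lrp2 (-0.23, adjusted p = 0.024) were lower without food under NRF and none was called under DRF in limma, 1 being lower at an unadjusted p under 0.05. The part of these markers in the members' differences was not tested. Liver markers were present at 17.8 to 349 TPM of Alb, and Alb and Fgb, 2 of the 4 liver markers with a value, were higher in fasted than fed DRF mice (1.20 and 0.94 log2 units, adjusted p = 0.039 and 9.7e-04). The 3 skeletal muscle markers with a value summed to 17.5 TPM or less. Libraries held 22.9 to 25.3 M recovered reads. Reads of single members ran from 83 to 3860 for Angptl4 and from 167 to 11909 for Pdk4.

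The genes around the members were taken from 5 lists, chosen with earlier results of these data known. In this fit 31.0% of all 12230 genes were called higher and 12.6% lower without food under NRF, and 7.87% higher and 17.4% lower under DRF. Of the 65 tested list genes of 75, 27 were higher and 7 lower under NRF, and 18 higher and 2 lower under DRF. Genes called in both schedules with 1 sign made up 3.21% (higher) and 2.80% (lower) of all genes, and 9 and 2 of the 65. More of the 12230 genes were called in both with opposite signs. Of these, 801 were higher without food under NRF and lower under DRF, and 113 the reverse, against 0 and 1 of the 65. All these counts are by TPM, and median-of-ratios scaling moved the split of calls over all genes, as given above.

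The ketone body list, described here over 9 genes, all tested, covers enzymes and transporters. Under NRF 2 were higher without food (Slc5a12 and Slc5a8) and 1 lower (Aacs, which activates acetoacetate in the cytosol), with a list median of 0.01 log2 units against 0.07 for all genes. Under DRF 4 were higher (Slc16a1, Slc5a12, Slc16a7 and Oxct1) and 0 lower, with a median of 0.19 against -0.01. At an unadjusted p under 0.05 in limma, 5 were higher and 0 lower under DRF. Oxct1, the enzyme that activates acetoacetate for use, was the most abundant gene of the list at 1175 to 1550 TPM in the fasted and fed groups and was 0.19 ± 0.04 higher without food under DRF (adjusted p = 0.0013) and -0.02 ± 0.04 under NRF (adjusted p = 0.696). With ZT8 and ZT20 alone its DRF difference was -0.028 (adjusted p = 0.807), the DRF means being 1175 TPM at ZT4, 1476 at ZT8, 1550 at ZT16 and 1445 at ZT20. Acat1, the thiolase of both synthesis and use, differed by 0.01 ± 0.04 and 0.03 ± 0.04 (adjusted p = 0.935 and 0.604). Slc5a12, a monocarboxylate transporter, was higher without food by 0.63 ± 0.16 in each schedule (adjusted p = 0.0015 and 0.0029). Slc16a1, which encodes the monocarboxylate transporter MCT1, was singled out after its values were seen: it rose by 1.56 ± 0.12 under DRF (adjusted p = 2.9e-13) and differed by -0.16 ± 0.12 under NRF (adjusted p = 0.293), with DRF means of 15.6 ± 2.07 TPM at ZT8 and 101 ± 18.9 TPM at ZT20.

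The list around pyruvate dehydrogenase held the other kinases, the phosphatases that reverse them, the subunits of the complex and the mitochondrial pyruvate carrier, with 11 of 12 genes tested. Under NRF 3 were higher without food (Pdp2, Pdpr and Pdk1) and 1 lower (Mpc1). Under DRF 0 of 11 passed in limma, and 0 had an unadjusted p under 0.05. Scaled by the median of ratios, the NRF counts were 2 and 5 and the DRF counts 1 and 0. Pdk1 was 0.19 ± 0.07 log2 units higher without food under NRF (adjusted p = 0.033, and 0.128 with median-of-ratios scaling) and 0.14 ± 0.07 under DRF (adjusted p = 0.175). Pdk3 differed by -0.18 ± 0.08 (adjusted p = 0.064, and 0.014 with median-of-ratios scaling) and 0.13 ± 0.08 (adjusted p = 0.252). Pdp2, a phosphatase that switches the complex back on, rose by 0.36 ± 0.11 under NRF (adjusted p = 0.0051) and differed by -0.08 ± 0.11 under DRF (adjusted p = 0.631). Pdp1 differed by 0.26 ± 0.15 and 0.25 ± 0.15 (adjusted p = 0.176 and 0.240). Beside these, the differences of Pdk4, 1.67 and 3.58, were several times as large in both schedules.

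Around lipoprotein lipase, the target of ANGPTL4, 11 of 13 genes were tested. Under NRF 4 were higher without food (Slc27a1, Gpihbp1, Vldlr and Slc27a2) and 3 lower (Lpl, Angptl8 and Cd36), and under DRF 0 were higher in limma, 2 at an unadjusted p under 0.05, and 1 was lower (Angptl8). Without the 14 mice high in Adipoq, the NRF counts were 1 and 3 and the DRF counts 0 and 1. Lpl itself fell without food under NRF by 0.72 ± 0.23 log2 units (adjusted p = 0.0098), from 229.8 ± 65.9 and 344 ± 126 TPM at ZT16 and ZT20 to 168 ± 61.4 and 167 ± 33.7 TPM at ZT4 and ZT8. Under DRF it differed by 0.34 ± 0.23 (adjusted p = 0.303), a difference between schedules of 1.06 ± 0.33 (adjusted p = 0.0090). Without the 14 mice high in Adipoq the Lpl values were -0.98 and 0.47. Angptl8, a partner protein in lipase inhibition, fell without food by 0.69 ± 0.17 under NRF (adjusted p = 0.0011) and 0.67 ± 0.17 under DRF (adjusted p = 0.0034), opposite in sign to the Angptl4 differences. Gpihbp1, the capillary anchor of lipoprotein lipase, was 0.27 ± 0.08 higher without food under NRF (adjusted p = 0.0057, and 0.051 with median-of-ratios scaling) and differed by 0.02 ± 0.08 under DRF (adjusted p = 0.890).

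Among partners, coregulators and sister receptors of PPARA, 14 of the 16 genes described here were tested. Under NRF 3 were higher without food (Ppargc1b, Lpin1 and Ppargc1a) and 2 lower (Ppard and Esrra), and under DRF 4 were higher (Ppard, Nrip1, Ppargc1b and Sirt1) and 1 lower (Esrra). Without the mice high in Adipoq, the NRF counts were 1 and 1, and with median-of-ratios scaling 1 and 3. Rxra, the obligate partner of PPARA on DNA, differed by 0.03 ± 0.07 and 0.12 ± 0.07 (adjusted p = 0.780 and 0.206). Ppargc1b, a coactivator, rose without food by 0.57 ± 0.08 under NRF (adjusted p = 2.4e-08) and 0.40 ± 0.08 under DRF (adjusted p = 6.3e-05). Esrra, the estrogen-related receptor alpha, fell by 0.23 ± 0.09 and 0.26 ± 0.09 (adjusted p = 0.028 and 0.022), the second at adjusted p = 0.071 with median-of-ratios scaling. Ppard, the sister receptor, was singled out after its values were seen. It fell without food by 1.06 ± 0.12 under NRF (adjusted p = 5.8e-10) and rose by 0.73 ± 0.12 under DRF (adjusted p = 7.9e-06), so it was higher by night in both schedules.

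Of 25 known PPARA targets in fatty acid breakdown, 20 were tested. Without food, 15 were higher and 0 lower under NRF and 10 higher and 0 lower under DRF, and 7 were higher in both, or 3 to 8 when 1 replicate number was left out. None of the 20 was lower at an unadjusted p under 0.05 in limma either. With no filter on mean TPM, 21 targets were tested. Of these, 15 were higher and 1 lower under NRF, and 10 higher and 0 lower under DRF. With median-of-ratios scaling 12 and 11 were higher and 0 lower. At ZT8, where 6.21% of all genes were higher and 9.28% lower under DRF than under NRF, 10 targets were lower and 0 higher. At ZT20, where 10.7% were higher and 6.39% lower, 15 were higher and 0 lower (15 and 1 of 21 with no filter). Cpt1a, which admits fatty acids to mitochondria, rose without food by 0.82 ± 0.07 under NRF (adjusted p = 7.3e-13) and 0.61 ± 0.07 under DRF (adjusted p = 1.1e-08). Acot12, a thioesterase that hydrolyses acetyl-CoA, rose by 0.66 ± 0.07 and 0.22 ± 0.07 (adjusted p = 6.9e-10 and 0.022), and the smallest of those called in both were Hadha (0.15 ± 0.05 and 0.20 ± 0.05, adjusted p = 0.0099 and 0.0018) and Mlycd (0.26 ± 0.06 and 0.19 ± 0.06, adjusted p = 2.6e-04 and 0.012). Between DRF ZT20 and NRF ZT8, deep in the fast of each schedule, 4.16% of all genes were higher under DRF and 8.20% lower. There 0 of the 20 targets were higher in limma, 2 at an unadjusted p under 0.05, and 2 were lower, while Pdk4 stood 1.70 log2 units higher.

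The genes whose 14 group means were most like those of each member, by Pearson's r among the 8452 genes with a mean of at least 10 TPM, are given as a description, since all share the same 56 libraries. For Angptl4 they were Slc25a34 (r = 0.913), Cpt1b, the muscle form of carnitine palmitoyltransferase (0.891), and Itch (0.886). For Pdk4 they were the transcription factor Sp3 (0.928), the mitochondrial carrier Slc25a30 (0.923) and Iba57 (0.893). The fasted minus fed differences of these companions were small beside those of the members, at most 0.70 log2 units under NRF and 0.92 under DRF. For Ppara they were Pnpla2, the triglyceride lipase of fat droplets (0.947), Nr1h4, the bile acid receptor (0.937), and Mrpl9 (0.930). For Pdk2 they were Eola1 (0.913), Plpbp (0.908) and Klf12 (0.902). Bdh1 had the weakest companions, Slco1a6 (0.798), Kdm4b (0.772) and Ace (0.771). Between members over the same 14 means, r was 0.83 for Angptl4 and Pdk4 and 0.75 for Pdk2 and Ppara.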

How the data were processed

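Poly(A) RNA of 56 kidneys was sequenced by the authors, and the submitters' processing notes name HISAT2, Bowtie2 and RSEM with the builds mm10 and GRCm38.p6. The deposited values are called TPM, but each behaves as a score: a library-specific multiple of log2(1 + a constant times the reads) divided by gene length, rescaled to nearly the same total in every library. Inverting this gave whole reads for 98.7% of values above 0 in the genes kept for it (lowest library 98.3%). A value counted as whole within 0.05 of a read, with a wider tolerance at high counts. Genes were kept for it if at least 50% of their values were whole, so the selection raised that share. For 1124 genes the length itself was searched for the most whole reads. In all, 15472 of 17027 genes were used, 9 of them too high for whole steps to show, and the other 1555 were left out. The length of Angptl4 was found by this search, not from the annotation. TPM was recomputed from those reads, and log2(TPM + 1) of the 12230 genes with a mean of at least 1 TPM was fitted with limma 3.58.1 (R 4.3.3, trended variance) over all 14 groups, with Benjamini-Hochberg adjustment over all genes tested and calls at adjusted p under 0.05. The design had expected TPM, and the test was kept.

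Members and gene lists were chosen with earlier results of these data known. Some list members and markers are not reported here and are left out of every list count and sum. Named list genes were Acat1, Oxct1, Pdk1, Pdk3, Pdp1, Pdp2, Lpl, Gpihbp1, Rxra and Cpt1a, plus, per list, the 2 genes with the largest and the 2 with the smallest mean difference among those called in both schedules with 1 sign; called genes of short counts were named after their values were seen. Correlations used deviations from group means (Python 3.11.15, numpy 2.4.6), and the marker correlations were added after seeing the data. Each library was 1 mouse, and 1 NRF ZT24 column carried a number that no sample label holds. It was taken as the remaining NRF ZT24 sample and entered its group without a replicate number. On simulated data with 200 genes changed 1.5-fold between fasted and fed NRF mice, 93% were recovered, with 5.6% false among calls. The simulation gave every gene 1 fixed dispersion, whereas the residual SD was 0.62 log2 units for Angptl4 and 0.16 for Pdk2. These shares therefore need not carry over to the real data. Alternatives were median-of-ratios scaling, a pseudocount of 0.1, no filter or a filter of 5 TPM, the deposited values taken as TPM, a replicate block, ZT8 and ZT20 alone, leaving out replicates, and leaving out mice high in Adipoq.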

Additional observations from a re-analysis of the deposited data

Results flagged for a closer look

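In 5 of 70 sets of 4 mice (5 genes in 14 groups), 1 mouse stood apart from the other 3 by Dixon's test, which chance gives in about 1 set in 20. Angptl4 was at 48.4 TPM in 1 DRF mouse at ZT24, against 34.3 to 36.5 TPM in the others. Pdk4 was at 148 TPM in 1 DRF mouse at ZT0, against 70.8 to 79.1 TPM, and at 41.4 TPM in 1 NRF mouse at ZT24, against 25.2 to 27.1 TPM. Ppara was at 140.4 TPM in 1 NRF mouse at ZT20, against 95.0 to 102 TPM. Bdh1 was at 219.8 TPM in 1 NRF mouse at ZT24, against 169.6 to 173 TPM. The mouse of NRF ZT24 that stood apart was the same one for Pdk4 and Bdh1.

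For 5 of the 17 named list genes, limma's test found the fasted minus fed difference to differ between the schedules (DRF minus NRF, log2 units, adjusted p under 0.05). These were Lpl (1.06), Pdk3 (0.31) and Oxct1 (0.21) on the higher side, and Pdp2 (-0.44) and Acot12 (-0.44) on the lower side. For Oxct1 the DRF difference turned to -0.028 with ZT8 and ZT20 alone. Food status is matched in this comparison, and the same value is the dark minus light difference over fasted and fed mice. Clock phase and schedule cannot be told apart in it.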

How the results depend on the processing

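Of the named values given without a test, 405 moved by less than the spread between mice under the alternatives and 30 by more. The tested differences were those of the named list genes and the ZT24 minus ZT0 differences of the 5 genes. Of these together, 520 kept direction and side of the threshold, 37 lost the threshold, 4 gained it and 1 reversed. Taking the deposited values as TPM, which compresses differences by construction, gave 0.65 (NRF) and 1.10 (DRF) for Angptl4, 0.40 and 0.94 for Pdk4, 0.10 and 0.064 for Ppara, 0.064 (NRF) for Pdk2, and under NRF 12 list genes higher, 12 lower and 9 PPARA targets higher, and under DRF 1 list gene lower. Median-of-ratios scaling gave 12 list genes lower under NRF and 1 under DRF, 947 genes for DRF minus NRF at ZT16 (606 by TPM) and r = -0.316 for Pdk2 and Bdh1. With only ZT8 and ZT20, the differences were 3.28 (Angptl4, NRF), 4.87 (Pdk4, DRF) and -0.084 (Pdk2, DRF), Oxct1 under DRF reversed to -0.028, and 1640 genes (DRF) and 2740 (DRF minus NRF) were called. With a filter of 5 TPM, 33 genes differed between ZT24 and ZT0 under NRF. Without the 14 mice high in Adipoq, leaving fewer mice, the calls were 994 (late fast, 1512 with all mice), 1206 (ZT0), 583 (ZT12), 191 (ZT16), 327 (ZT20, 2086 with all mice), 307 (mean over the clock) and 50 (ZT24 minus ZT0, NRF).

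Leaving out 1 replicate number at a time gave 1943 to 3198 genes for fasted minus fed under DRF, 847 to 1430 for the late fast, 1158 to 1663 at ZT0, 1872 to 3218 at ZT4, 908 to 1323 at ZT8, 1237 to 1878 at ZT12, 205 to 526 at ZT16, 999 to 2561 at ZT20, 864 to 1801 at ZT24, 387 to 1012 for the mean over the clock, 35 to 69 for ZT24 minus ZT0 under NRF, and 2433 to 4382 for the 24-h rhythm under DRF. List genes higher under NRF numbered 17 to 30, list genes lower under DRF 1 to 2, and PPARA targets higher under DRF 6 to 10. Without the NRF ZT24 mouse that was given no replicate number, 1351 genes differed at ZT24, against 1815 with it.

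Replicate numbers did not pair the mice: deviations of same-numbered mice of different groups correlated with a mean r of 0.010 over 351 pairs, 140 of them over 0.1. With the replicate number as a block, fasted minus fed called 5291 genes under NRF (5335 without), 3022 under DRF (3086) and 4419 for their difference (4475), and the late fast 1497 (1512). Causes were not tested beyond those named. With 4 mice a group, SEs of 0.30 (Angptl4) and 0.23 (Pdk4) log2 units limit what the fasted minus fed differences can resolve.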
